A study of Mus musculus with 43 samples.

Results

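Retinoic acid (RA) was set against its solvent, DMSO, after 24 h in germ cell cultures of wild-type (WT) mice. The libraries were chosen by their labels for genotype, treatment and time: 3 with RA and 3 with DMSO, 1 of each from the culture lines WT17, WT23 and WT25. They fill 6 of the 42 library columns of the deposited table and stand for 7 of the 43 listed samples, since WT17 with RA for 24 h is listed as 2 samples and has 1 column. Of 46983 genes in the table, the 16297 with a value of at least log2(10) in 3 or more libraries were tested.

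The cultures had been started from THY1-positive testis cells and were kept in serum-free medium with the growth factors GDNF and FGF2 and the GDNF co-receptor GFRA1. They grew on STO cells, a mouse fibroblast line used as feeder, and were used at passages 3 to 12. The labels give the RA (all-trans) as 0.01 M and the DMSO as 0.01%, and no value in the files can check the RA dose. Beside the 24 h libraries stand 3 untreated WT cultures (0 h), 3 WT cultures with RA and 3 with DMSO for 8 h, and, from Stra8-knockout mice (KO, lines KO12, KO20 and KO21), 3 with RA and 3 with DMSO for 24 h. The labels give neither the design of the knockout allele, nor whether feeder cells were removed before RNA was taken, nor whether each line came from a separate mouse. The p-values therefore measure the spread between these libraries only.

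RA is made from vitamin A and acts through nuclear receptors, the RARs, which pair with RXRs on repeated DNA hexamers near target genes. In the testis, undifferentiated spermatogonia, among them the stem cells, are kept by GDNF, which signals through the receptors GFRA1 and RET and the kinases downstream of them. RA moves these cells towards KIT-positive differentiating spermatogonia and is needed again when germ cells enter meiosis, for which the RA-induced protein STRA8 and its partner MEIOSIN are required.

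All levels below are the authors' log2 values, and a change is the RA level minus the DMSO level on that scale, so that a change of 1 is a doubling. Values of genes with few reads were drawn towards their own mean before deposit, which understates their changes. Sizes on this scale also differed from the authors' own log2 fold changes for abundant genes. Nefm had -1.99 here against -3.14 there, Dusp6 -1.55 against -2.42 and Ccnd2 -0.70 against -1.05. Stra8 and Kit went the other way, with 6.83 and 3.62 here against 3.80 and 3.16 there. Fold sizes and counts of 2-fold changes below hold for this scale only. The 3 RA libraries lay apart from the 3 DMSO libraries: the standard deviation (SD) of the log2 differences over all genes tested was 0.18 to 0.28 between RA libraries, 0.20 to 0.25 between DMSO libraries and 0.37 to 0.44 between an RA and a DMSO library. Between DMSO at 24 h and untreated cultures at 0 h, limma called 612 genes (3.76%), but 1 gene without the culture line as a block, and 0, 938 and 21 genes without WT17, WT23 and WT25. Markers of feeder fibroblasts moved apart by line: the median change of 27 such genes was -0.29, 0.55 and -0.25 in WT17, WT23 and WT25. The part of feeder RNA in the changes of WT23 was not tested. In bulk RNA of this kind, fewer cells of a type and less RNA per cell cannot be told apart.

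RA changed the level of many genes by a small amount and of few genes by a large one. limma called 3641 genes higher with RA (22.3% of those tested) and 3927 lower (24.1%) at an adjusted p under 0.05, together 46.4%. The median size of a called change was 0.31, and 75.0% of the called genes changed by less than 0.5. Rises of at least 2-fold were called for 133 genes (0.816%) and falls of at least 2-fold for 259 genes (1.59%). The RA and DMSO libraries did not overlap in any of these genes, and did not overlap in 46.7% of all genes tested. Falls of 2-fold or more were the more numerous, while the largest changes on this scale were rises. On it, 13 genes rose and 5 fell by 4-fold or more, and 4 rose and none fell by 8-fold or more. By the authors' log2 fold changes, Nanos2 (-3.88) and Nefm (-3.14) did fall by over 8-fold, while Cyp26a1 and Stra8 rose by 4.18 and 3.80. In the authors' deposited table, 6124 of 16278 tested genes with an adjusted p were called in the same comparison, and 6097 of them were called here, all in the same direction. Of the genes called here that have an adjusted p there, 80.6% were also called there.

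**Figure D1:**
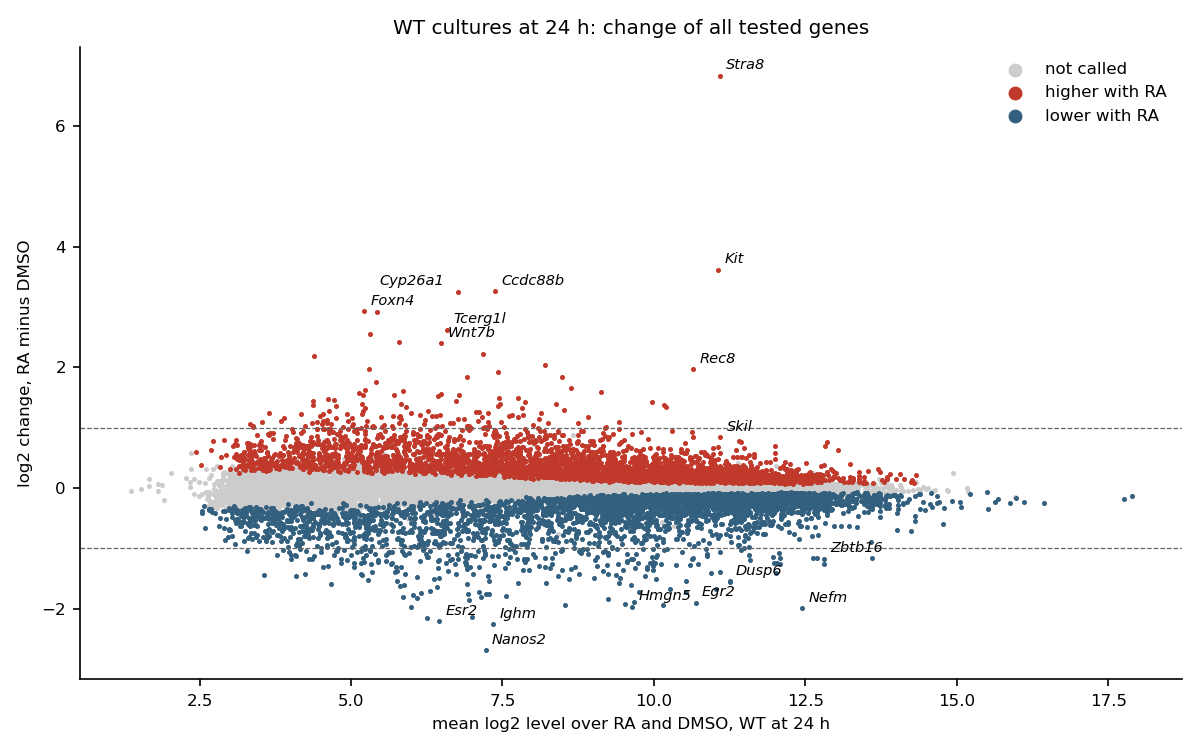
Change with RA at 24 h in WT cultures (RA minus DMSO, log2, vertical axis) against the mean log2 level of each of the 16297 genes tested, coloured by whether limma called it higher, lower or neither. Dashed lines mark 2-fold changes, which 133 genes passed upwards and 259 downwards, and Stra8 stands alone at the top with a change of 6.83.

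Genes that mark undifferentiated and differentiating spermatogonia were among the largest changes in both directions. Stra8, the RA-induced factor of meiotic entry (chromosome 6, bases 34920163 to 34939344, in the coordinates of the deposited table), had values of 14.73, 14.10 and 14.69 with RA, against 7.87, 7.49 and 7.67 with DMSO, each time in the order WT17, WT23, WT25. Every RA library lay far above every DMSO library, and the change was 6.83 ± 0.25 (SE, n = 3 lines), 114-fold on this scale (adjusted p = 9.4e-13). The authors' deposited table lists a log2 fold change of 3.80 for Stra8, with no adjusted p. Untreated cultures had 8.06 ± 0.73 (SD, n = 3), near the DMSO level. In the KO cultures, where the gene is disrupted, its transcript was still measured, at 9.65 ± 0.16 with RA and 6.57 ± 0.19 with DMSO (SD, n = 3).

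Kit, the receptor for stem cell factor and the standard surface marker of differentiating spermatogonia (chromosome 5, bases 75574916 to 75656722), had 12.78, 12.82 and 13.02 with RA, against 9.44, 8.95 and 9.39 with DMSO. The groups were again far apart, with a change of 3.62 ± 0.17 (12.3-fold, adjusted p = 1.7e-11). Foxn4, a forkhead transcription factor known from retina and spinal cord (chromosome 5, bases 114254164 to 114273807), had 6.71, 6.67 and 6.66 with RA, against 3.99, 3.69 and 3.59 with DMSO. It was low in all 3 DMSO libraries, and its change of 2.93 ± 0.15 (adjusted p = 1.8e-13) stands on a scale that compresses such low values. Tcerg1l, the other gene of the study's title (chromosome 7, bases 138208974 to 138397730), had 7.77, 7.82 and 8.09 with RA, against 5.50, 5.11 and 5.20 with DMSO. It rose by a similar amount in each line (2.63 ± 0.14, 6.17-fold, adjusted p = 5.6e-13).

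Nanos2, an RNA-binding protein that keeps spermatogonial stem cells undifferentiated (chromosome 7, bases 18987400 to 18988962), had 6.09, 5.79 and 5.77 with RA, against 8.64, 8.56 and 8.51 with DMSO. It was the gene with the largest fall of all genes tested, -2.69 ± 0.14 (6.44-fold lower, adjusted p = 1.5e-12), and all 3 lines showed it. Esr2, the oestrogen receptor beta (chromosome 12, bases 76120419 to 76177259), had 5.50, 5.10 and 5.45 with RA, against 7.62, 7.40 and 7.64 with DMSO, a change of -2.21 ± 0.11 (adjusted p = 1.8e-13). Its RA values too lay below every DMSO value. In untreated cultures Nanos2 stood at 8.70 ± 0.15 and Esr2 at 7.57 ± 0.19 (SD, n = 3), on the DMSO side of the gap.

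**Figure D2:**
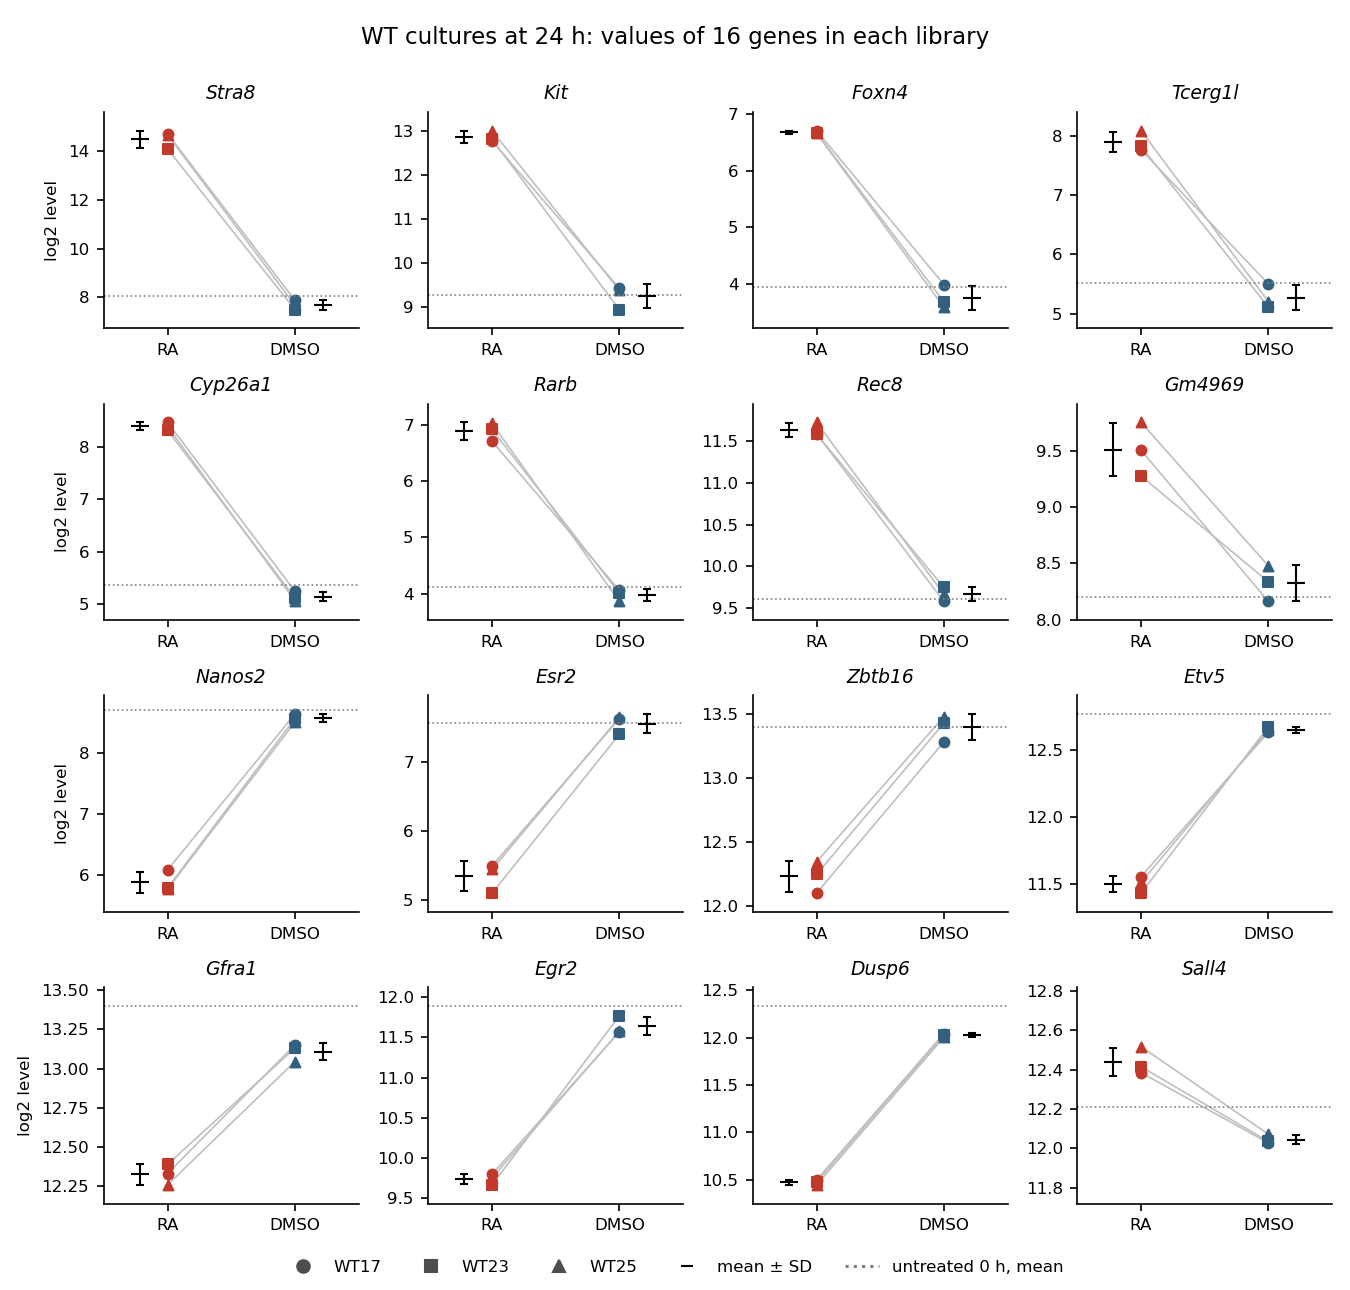
Log2 values of 16 genes in the 3 WT cultures with RA (left in each panel) and the 3 with DMSO for 24 h (right), with thin lines joining the libraries of 1 culture line and bars for the mean ± SD; the dotted line is the mean of the untreated cultures at 0 h. Stra8, Kit, Foxn4, Tcerg1l, Cyp26a1, Rarb, Rec8, Gm4969 and Sall4 were higher with RA, and Nanos2, Esr2, Zbtb16, Etv5, Gfra1, Egr2 and Dusp6 were lower, with no overlap between the groups in any panel.

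Genes through which cells sense and clear RA were among the largest rises. Cyp26a1, the main RA-degrading cytochrome P450, had 8.47, 8.32 and 8.39 with RA, against 5.25, 5.12 and 5.06 with DMSO, a change of 3.25 ± 0.17 (adjusted p = 8.4e-13). Rarb, the RA receptor beta and a classical direct target of RA receptors, had 6.71, 6.92 and 7.03 with RA, against 4.06, 4.01 and 3.86 with DMSO, a change of 2.91 ± 0.17 (adjusted p = 2.1e-12). For both, the lines lay close together within each treatment. A second RA-degrading enzyme, Cyp26b1, had 6.28, 7.41 and 6.10 with RA, against 4.16, 4.16 and 3.82 with DMSO. Its RA values did not overlap the DMSO values, but WT23 stood above the other RA libraries, and the change was 2.55 ± 0.19 over all lines and 2.20 without WT23. Stra6, the cell surface receptor that takes up retinol, rose by 2.18, with 5.43, 6.08 and 4.92 with RA, against 3.51, 3.27 and 3.10 with DMSO, all low values.

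The members of gene lists were counted next, and the percentage beside each count is the share of the list's measured genes that was called, against 46.4% of all genes tested. Some genes are in more than 1 list, so the counts of different lists are not separate findings. Of 20 measured genes of retinoid metabolism and binding, 7 were higher and 2 lower (45.0% called, median change 0.14, against 0.0024 over all genes tested). The list was called about as often as genes in general, and its median was 0.22, 0.07 and 0.18 without WT17, WT23 and WT25. The RA-synthesizing dehydrogenase Aldh1a3 fell by 1.11. The RA-binding proteins Crabp1 and Crabp2 had changes of 0.32 ± 0.13 and 0.03 ± 0.10 and were not called. Dhrs3, a retinaldehyde reductase that RA induces in many cells, was also not called, at 0.07 ± 0.12. Its values were 8.07, 8.31 and 8.04 with RA, against 8.15, 7.89 and 8.17 with DMSO, and the groups overlapped. At 8 h its change had been 0.72 ± 0.12, and the 24 h effect differed from it (adjusted p = 0.0094).

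Among 17 receptors and coregulators, 7 were higher and 3 lower (58.8%). Rara, Rarg and Rxrb were not called, with changes of -0.11, 0.03 and 0.09, and their groups overlapped. Nrip1, an RA-induced corepressor of nuclear receptors, rose by 1.45 and the coactivator Ncoa1 rose by 0.62. The receptor Rxrg fell by 1.02. In a list of 17 measured genes that RA induces in other cells, 7 were higher and 3 lower (58.8%). Tissue transglutaminase, Tgm2, had 8.15, 8.87 and 7.82 with RA, against 6.22, 6.11 and 5.86 with DMSO, a change of 2.22 ± 0.15. WT23 was again the highest, and the change without it was 1.94. WT23 is also the line whose feeder markers were higher with RA, and their part in the WT23 values of Cyp26b1, Tgm2 and the genes below was not tested. Of 19 measured Hox genes, which RA induces in embryos, 3 were higher and 2 lower (26.3%), with Hoxb13 at 1.39 ± 0.17. Of the others called higher, Hoxa5 and Hoxa4 had 0.80 and 0.51 and lost the call without WT23 (0.24 and 0.23).

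RA receptors bind direct repeats of a hexamer, and a spacing of 5 bases is the best known arrangement. The sequences around the starts of the responding genes (RefSeq, build GRCm38.p6, 250 bases before to 50 after each start) were searched on both strands for a direct repeat of any 2 of these hexamers: the consensus AGGTCA, its variant AGTTCA, the variant GGGTCA or the variant GGTTCA. With a spacing of 5 bases, 32 of 32851 promoters in the table held such a repeat (0.0974%), and 6 of 14717 promoters of genes tested (0.0408%). Of the 133 genes at least 2-fold higher, 92 had an entry, and 3 of their 122 promoters held it (2.46%), those of Cyp26a1, Rarb and Blvrb. None of the 241 promoters of 185 matched genes at least 2-fold lower did. Spacings of 0, 1 and 2 bases were found in neither set, against 0.213%, 0.222% and 0.268% of all promoters. Among promoters of genes tested the shares were 0.116%, 0.258% and 0.0951%. With shares this small, 122 and 241 promoters are too few for an absence to be read. The 250 bases before the start are shown for the 3 genes with the repeat and for Stra8, each on the strand of its gene, with the hexamers of the repeat in capitals. In Cyp26a1 and Blvrb the repeat lies on the opposite strand and so reads as TGAACT. Stra8 has no repeat in this window, and its 2 single AGGTCA hexamers are in capitals. By the deposited coordinates given above, this Stra8 stretch lies inside the gene. The bases before the deposited start of Stra8 were not searched.
Cyp26a1, chr19:37697558-37697807, plus strand: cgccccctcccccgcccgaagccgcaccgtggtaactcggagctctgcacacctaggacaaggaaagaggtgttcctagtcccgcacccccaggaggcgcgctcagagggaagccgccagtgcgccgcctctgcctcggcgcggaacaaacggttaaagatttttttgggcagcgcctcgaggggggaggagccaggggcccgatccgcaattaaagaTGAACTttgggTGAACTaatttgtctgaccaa
Rarb, chr14:16575477-16575726, minus strand: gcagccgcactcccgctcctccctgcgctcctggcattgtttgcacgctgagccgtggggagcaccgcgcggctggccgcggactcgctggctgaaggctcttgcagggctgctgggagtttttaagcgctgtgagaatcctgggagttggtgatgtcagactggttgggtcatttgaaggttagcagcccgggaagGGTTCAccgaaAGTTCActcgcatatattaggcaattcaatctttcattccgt
Blvrb, chr7:27452168-27452417, plus strand: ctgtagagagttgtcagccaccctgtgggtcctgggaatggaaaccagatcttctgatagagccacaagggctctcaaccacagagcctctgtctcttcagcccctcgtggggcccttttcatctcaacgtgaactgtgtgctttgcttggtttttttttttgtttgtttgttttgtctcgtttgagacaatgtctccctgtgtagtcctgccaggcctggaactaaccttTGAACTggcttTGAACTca
Stra8, chr6:34920698-34920947, plus strand: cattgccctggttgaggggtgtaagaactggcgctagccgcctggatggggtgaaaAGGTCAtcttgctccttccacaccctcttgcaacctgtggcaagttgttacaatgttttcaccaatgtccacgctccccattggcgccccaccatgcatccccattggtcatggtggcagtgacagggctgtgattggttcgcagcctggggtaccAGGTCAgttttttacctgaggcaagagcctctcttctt

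The repeat begins 32 bases before the start in Cyp26a1, 53 bases before it in Rarb and 19 bases before a start of Blvrb, the biliverdin reductase B gene. Blvrb, named after its values were seen, rose by 1.24 ± 0.11 in WT and by 2.85 in KO. Of 6 tested genes with the repeat, Prokr2 also rose (0.97 ± 0.15), Tnfsf13b was not called (-0.15 ± 0.12) and Cfap45 fell by 0.46 ± 0.09. These 3 were likewise named after their values were seen. A match describes these letters only.

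Other large rises fell outside the RA pathway. Ccdc88b, a coiled-coil protein related to girdin, had 9.16, 8.78 and 9.09 with RA, against 5.90, 5.70 and 5.66 with DMSO, a change of 3.26 ± 0.15 (adjusted p = 1.2e-13). The Wnt ligand Wnt7b had 7.97, 7.26 and 7.84 with RA, against 5.45, 5.13 and 5.29 with DMSO (2.40 ± 0.15). Fndc5, the precursor of irisin, rose by 2.41, Shank2, a scaffold of the postsynapse, rose by 1.85, and Rgl3, an exchange factor for Ral GTPases, rose by 1.84. Perp, a tetraspan protein of desmosomes and a p53 target, had 6.68, 5.97 and 6.19 with RA, against 4.71, 4.36 and 4.51 with DMSO (1.75 ± 0.14). None of these groups overlapped. Ogn, a small proteoglycan of connective tissue, had 8.98, 10.17 and 8.48 with RA, against 7.54, 6.84 and 7.16 with DMSO, with WT23 the highest with RA. Its change was 2.03 ± 0.38 and did not pass when only the 6 libraries were fitted (adjusted p = 0.074). The remaining genes among the 20 largest rises by the rule were Fam167a (1.98), the class I histocompatibility gene H2-Q2 (1.92), which has near-identical neighbours, Slx1b (1.65), a subunit of a structure-specific nuclease, and Mab21l3 (1.63).

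Most genes in a list of self-renewal factors fell, chiefly transcription factors but also RNA-binding proteins such as Nanos2 and Nanos3. Of 35 measured, 25 were lower and 3 higher (80.0% called, against 46.4% of all genes tested). Of those lower, 12 fell by at least 2-fold. The median change of the list was -0.46, with -0.43, -0.66 and -0.42 in WT17, WT23 and WT25. Zbtb16 (PLZF), a repressor that stem cell maintenance requires, had 12.10, 12.24 and 12.34 with RA, against 13.28, 13.43 and 13.48 with DMSO, a change of -1.17 ± 0.06 (adjusted p = 6.0e-13). Etv5, an ETS factor needed for self-renewal, had 11.55, 11.43 and 11.51 with RA, against 12.64, 12.68 and 12.65 with DMSO (-1.16 ± 0.07). In both, every RA value lay below every DMSO value. Bcl6b fell by 1.24 and Lhx1 fell by 1.24, both known as GDNF-induced genes in these cells. Sall3 fell by 1.94, Nanos3 fell by 1.43 and Zfp462 fell by 1.25. Foxc2, a forkhead factor of quiescent stem cells that was not in the list, fell by 1.91. Not called were Sohlh1 (0.23 ± 0.13), Lin28b (0.02 ± 0.04), Id1 (-0.08 ± 0.16) and Shisa6 (-0.46 ± 0.23).

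The GDNF pathway, which supports these cells in culture, had the lowest median change of the 52 gene lists, -0.74. Of 24 measured genes, 17 were lower and 2 higher (79.2%). The receptor Ret had 12.25, 12.13 and 12.15 with RA, against 13.48, 13.47 and 13.38 with DMSO, a change of -1.26 ± 0.07 (adjusted p = 1.5e-11), and its partner Gfra1 had 12.33, 12.39 and 12.26 with RA, against 13.15, 13.13 and 13.04 with DMSO, a change of -0.79 ± 0.08 (adjusted p = 1.7e-07). Of the GDNF-responsive genes, the neurofilament gene Nefm had 11.54, 11.43 and 11.40 with RA, against 13.47, 13.54 and 13.34 with DMSO (-1.99 ± 0.11), and Egr3 fell by 1.25 and Egr4 fell by 1.46. Tspan8, a surface protein of spermatogonia with stem cell activity, fell by 1.76. The adaptor Frs2 (0.07 ± 0.03) was not called. Among 27 surface markers of undifferentiated spermatogonia, 13 were lower and 5 higher (66.7% called, median -0.36), with the chemokine receptor Cxcr4 at -0.81 and the urokinase receptor Plaur at -0.98, while Itgb1 (0.08), Il6st (0.01) and Epha2 (-0.31) were not called.

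Feedback genes and targets of the ERK kinases were lower as well. Of 33 genes of ERK feedback and targets, 18 were lower and 4 higher (66.7% called, median -0.23), and of 31 immediate early genes 20 were lower and 2 higher (71.0% called, median -0.38). Dusp6, a phosphatase that ERK induces and that shuts ERK off, averaged 10.47 ± 0.03 with RA and 12.02 ± 0.02 with DMSO (SD, n = 3), a change of -1.55 ± 0.10 (adjusted p = 1.1e-09). Egr2 had 9.80, 9.67 and 9.75 with RA, against 11.57, 11.77 and 11.57 with DMSO (-1.90 ± 0.13). In neither gene did the groups overlap. Spry4, a feedback inhibitor of receptor tyrosine kinases, fell by 1.40, Egr1 fell by 1.26, Ier3 fell by 1.33, Maff fell by 1.32 and Phlda1 fell by 1.29. Rgs4, a regulator of G protein signalling, rose by 1.00. The kinase Map2k2 (-0.04), which activates ERK, was not called, nor were the inhibitor Spred2 (0.01) and the immediate early genes Junb (-0.29) and Ier2 (0.07).

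**Figure D3:**
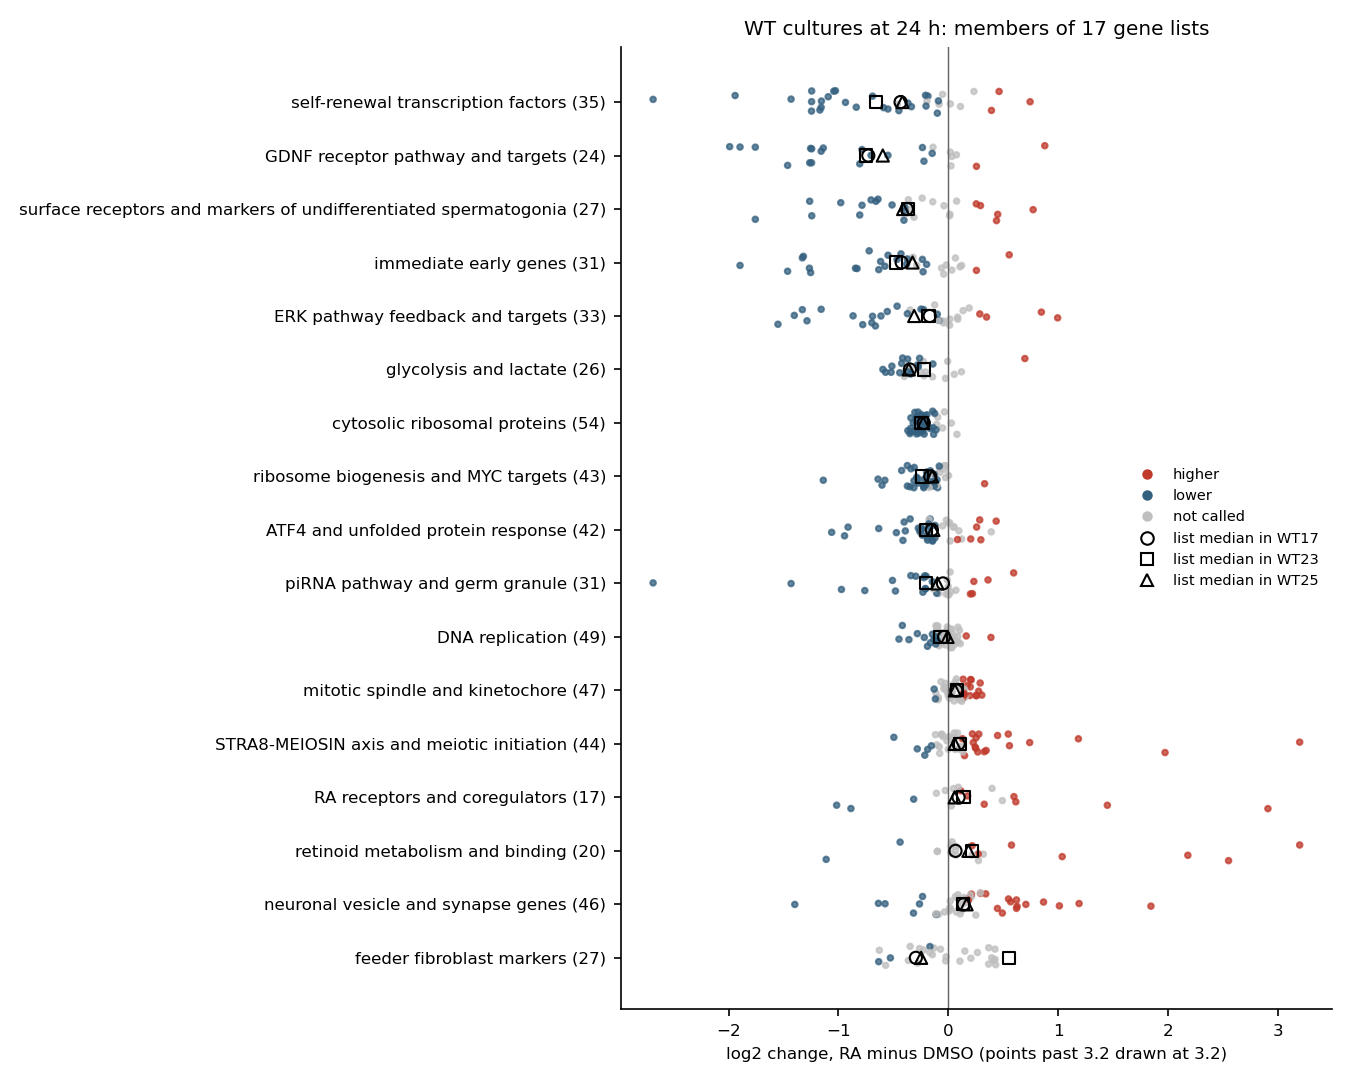
Change with RA at 24 h (RA minus DMSO, log2) of every measured member of 17 gene lists, with 1 dot per gene coloured by its call and, as open symbols, the median of the list in each of the 3 culture lines; values above 3.2 are drawn at 3.2. The self-renewal, GDNF and immediate early lists lie to the left of 0 in every line, with medians of -0.46, -0.74 and -0.38 over the lines.

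Genes of the pluripotency network that germ cells share were mixed. Of 20 measured, 9 were lower and 2 higher (55.0%), with the median at -0.05 and at 0.06, -0.36 and 0.04 in the 3 lines. Tcl1, a coactivator of the kinase AKT, fell by 1.71, Esrrb fell by 0.88 and Prdm1, a repressor of primordial germ cells, fell by 1.03. Klf4 (-0.04 ± 0.07), Zfp42 (0.03 ± 0.06) and Sox3 (0.02 ± 0.15) were not called. Sall4, a zinc finger factor of spermatogonia on which differentiation depends, had 12.38, 12.41 and 12.52 with RA, against 12.03, 12.03 and 12.07 with DMSO and rose slightly (0.39 ± 0.04).

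Genes of germ cell identity were mostly called, but several core members were not. Of 15 measured, 3 were higher and 8 lower (73.3% called, median -0.21, and -0.12 without WT23). The list shares genes with those above, and its highest change, 3.62, is that of Kit. Not called were Ddx4, the germ cell RNA helicase (-0.01 ± 0.03), Dazl, an RNA-binding protein (0.00 ± 0.03), Uchl1 (0.06 ± 0.07) and Tex101 (-0.05 ± 0.05). Under quantile normalization Dazl was called higher, at 0.12.

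Factors of differentiating spermatogonia were called about as often as genes in general. Of 29 measured, 10 were higher and 4 lower (48.3% called, median 0.03). Gm4969, the table's symbol for the gene of the STRA8 partner MEIOSIN, had 9.50, 9.27 and 9.75 with RA, against 8.16, 8.34 and 8.48 with DMSO, a change of 1.19 ± 0.09 (adjusted p = 8.0e-11). The homeobox gene Rhox10 rose by 1.01 and the homeobox gene Lhx8 rose by 0.90. Dmrtb1 fell by 1.19, whereas Dmrt1 (0.00 ± 0.05), a factor of the same family, Mga (0.01 ± 0.04), Scml2 (0.02 ± 0.03) and Taf7l (0.05 ± 0.05) were not called.

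Of 44 measured genes of meiotic initiation, 18 were higher and 5 lower (52.3% called, against 46.4% of all genes). Beyond Stra8, Rec8 and Gm4969 none rose by 2-fold on this scale. Rec8, the meiotic kleisin subunit of cohesin, had 11.59, 11.59 and 11.73 with RA, against 9.58, 9.75 and 9.66 with DMSO, a change of 1.97 ± 0.06 (adjusted p = 1.2e-17), with the lines close together in each treatment. Prdm9, the histone methyltransferase that places recombination sites, rose by 0.74, with 7.85, 7.93 and 7.86 with RA, against 7.12, 7.08 and 7.21 with DMSO. The authors' log2 fold change for Prdm9 was 1.00. Sycp3, a protein of the synaptonemal complex axis, had 11.73, 11.99 and 12.08 with RA, against 11.12, 11.45 and 11.57 with DMSO (0.56 ± 0.07), while its partners Sycp1 and Sycp2 had changes of 0.13 ± 0.09 and -0.12 ± 0.09 and were not called. Of 9 measured markers of spermatocytes and spermatids, only the cyclin Ccna1 was called (0.91), and Piwil1, Ldhc and Crem had changes of -0.02, 0.06 and 0.00.

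Among 21 cohesin genes, 10 were higher and 5 lower (71.4%). Over all 42 libraries with the replicate block, where 4998 genes in all were called, 5 cohesin genes were higher and 1 lower. Besides Rec8, the meiotic subunit Stag3 rose by 0.27 and the deacetylase Hdac8 rose by 0.46, while Rad21l, another meiotic kleisin, fell by 0.28. Smc1b had a change of 0.25 and lost its call without WT23 (0.19). The loader subunits Nipbl (-0.10) and Mau2 (0.02) were not called.

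In the piRNA pathway, by which germ cells silence transposons, 16 of 31 genes were lower and 5 higher (67.7%). Without the replicate block, 10 were lower. Tdrd5 fell by 0.76, Piwil4, the nuclear PIWI protein, fell by 0.51, and Spocd1, which links it to DNA methylation, fell by 0.97. Pld6 rose by 0.60. Piwil2 (0.02) and Mov10l1 (0.00) were not called.

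Of 18 genes of DNA methylation, 5 were higher and 5 lower (55.6%). The count of higher ones was 2 without WT17, 2 without WT25 and 2 when libraries were centred on their medians. The de novo methyltransferase Dnmt3b had 11.31, 11.33 and 11.54 with RA, against 10.68, 10.69 and 10.76 with DMSO (0.69 ± 0.05), with all RA values above all DMSO values. Its cofactor Dnmt3l fell by 0.75, from a low level, and Dnmt3a fell by 0.17. Tet1, which oxidizes methylcytosine, had 6.16, 6.17 and 5.81 with RA, against 7.44, 7.06 and 7.17 with DMSO (-1.18 ± 0.13). The maintenance enzyme Dnmt1 was not called (-0.02 ± 0.03).

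Of 45 Polycomb genes and repressors of germline genes, 22 were lower and 8 higher (66.7%), mostly by little. The ubiquitin ligase Rnf2 rose by 0.52, while Scmh1 fell by 0.55, Mtf2 fell by 0.49, E2f6 fell by 0.44, Kdm6a fell by 0.42 and Cbx7 fell by 0.42. The split was 15 higher and 17 lower under quantile normalization. Of 28 histone variants and chaperones, 14 were lower and 2 higher (57.1%). Over all 42 libraries with the replicate block, 6 of them were lower and 1 higher. Hmgn5, a nucleosome-binding protein encoded on the X chromosome, had 8.76, 8.43 and 8.77 with RA, against 10.49, 10.60 and 10.76 with DMSO (-1.96 ± 0.17), and the macro-histone H2afy2 fell by 1.05.

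The KIT pathway changed at the receptor more than below it. Of 29 genes, 9 were higher and 10 lower (65.5%), with a median of -0.06. Mtor, the growth-controlling kinase, had 13.29, 13.36 and 13.41 with RA, against 12.72, 12.74 and 12.73 with DMSO (0.62 ± 0.03), and Mitf, a transcription factor downstream of KIT in melanocytes, rose by 0.76. The Src-family kinase Fyn fell by 0.78, the kinase subunit Pik3cd fell by 0.62 and the inhibitory adaptor Sh2b3 fell by 0.54. Grb2, Ptpn11 and Cblb were not called (-0.01, -0.07 and -0.01). The ligand of KIT, Kitl, was not called (-0.32 ± 0.14).

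Ribosomal protein genes fell by small, even amounts. Of 54 measured, 48 were lower and 0 higher (88.9% called, median -0.24, and -0.22, -0.24 and -0.23 in the 3 lines). Rpl13 had 11.79, 11.43 and 11.84 with RA, against 12.08, 12.02 and 12.06 with DMSO (-0.37 ± 0.06), Rpsa fell by 0.35 and Rps16 fell by 0.34. The count was 41 under quantile normalization and 6 over all 42 libraries with no replicate block. Of 43 genes of ribosome biogenesis and MYC targets, 32 were lower and 1 higher (76.7% called, median -0.17). Mycn had 9.49, 9.13 and 9.59 with RA, against 10.57, 10.45 and 10.60 with DMSO (-1.14 ± 0.08, adjusted p = 1.2e-10), with no overlap. Rrp9, of pre-ribosomal RNA processing, fell by 0.64 and Srm, which makes spermidine, fell by 0.60. Myc had -0.58 ± 0.23 and lost its call when WT17, WT23 or WT25 was left out (-0.64, -0.39 and -0.69).

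Metabolic genes fell more often than they rose. In the ATF4 and unfolded protein list, 25 of 42 were lower and 6 higher (73.8% called, median -0.17). Phgdh, which opens serine synthesis, had 10.91, 10.85 and 10.98 with RA, against 11.93, 11.80 and 11.85 with DMSO (-0.94 ± 0.07), and Ddit4, a stress-induced inhibitor of mTORC1, fell by 1.06. The amino acid transporter Slc7a5 fell by 0.63 and its heavy chain Slc3a2 fell by 0.47. Of 26 glycolysis genes, 14 were lower and 1 higher (57.7% called, median -0.28). Pkm, pyruvate kinase, had 14.66, 14.21 and 14.55 with RA, against 15.23, 14.81 and 15.17 with DMSO (-0.60 ± 0.08), Hk2 fell by 0.57 and Hk1 fell by 0.44. The count of lower glycolysis genes was 7 without WT25, 9 under quantile normalization and 8 without the block.

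Of 41 genes of cholesterol and fatty acid synthesis, 19 were lower and 9 higher (68.3%). Srebf2, which activates sterol synthesis genes, fell by 0.48 and the sterol synthesis enzyme Hmgcs1 fell by 0.46. For respiration the split was 10 higher and 17 lower of 56 (48.2%), and 17 higher and 11 lower under quantile normalization. Of 9 mitochondrially encoded genes, 5 were lower and 0 higher (55.6%), and none was called under quantile normalization. In the lysosome and autophagy list, 11 of 33 were lower and 4 higher (45.5%), with Wipi1 at -0.73 and Gabarapl1 at -0.68.

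Cell cycle genes changed by small amounts. Of 49 replication genes, 13 were lower and 2 higher (30.6%), none by 2-fold, and under quantile normalization 6 were lower and 10 higher. Mcm10 fell by 0.42 and Tk1 fell by 0.36, while Pola1 rose by 0.39, and Mcm2 and Mcm6 were not called (-0.05 and -0.10). Of 47 spindle genes, 15 were higher and 2 lower (36.2% called, median 0.06), with Kif15 at 0.31 and Spc25 at 0.29. The count of higher spindle genes was 23 under quantile normalization, 8 when libraries were centred on their medians, 7 without the block, and 7, 9 and 8 without WT17, WT23 and WT25. The proliferation marker Mki67 was not called (0.15 ± 0.07). Among 40 cyclins, kinases and inhibitors, 10 were higher and 10 lower (50%). Ccnd2, the D-type cyclin of spermatogonia, had 13.78, 13.89 and 13.99 with RA, against 14.55, 14.62 and 14.60 with DMSO (-0.70 ± 0.05), Cdk4 fell by 0.54, Cdk6 rose by 0.65 and the inhibitor Cdkn2d rose by 0.64.

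Signalling lists held single members that changed strongly in a mixed background. Among 47 Wnt genes, 13 were higher and 11 lower (51.1%). Wnt7a rose by 0.90 beside Wnt7b, while the Wnt receptor partner Lgr5 fell by 1.24, the secreted inhibitor Wif1 fell by 1.17 and Wnt3 fell by 0.90. Ctnnb1 and Axin1 were not called (0.04 and -0.01). Of 44 genes of the TGF-beta family, 8 were higher and 12 lower (45.5%), with the SMAD inhibitor Skil at 0.85, Id3 at -1.03 and the activin antagonist Fst at -0.98, and with Smad2, Smad3 and Smad4 not called.

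Of 16 Hedgehog genes, 6 were lower and 2 higher (50%). The receptor Ptch1 fell by 1.08, the co-receptor Boc fell by 1.42 and the target Gli1 fell by 0.84, while Smo was not called (0.12 ± 0.06). Of 31 Notch genes, 8 were lower and 4 higher (38.7%), with Dtx1, a regulator of Notch, at -1.17 and Notch1 at -0.73. The count of higher ones was 2 without the block and 2 without WT25. In the cytokine list 7 were higher and 8 lower of 26 (57.7%). Stat3 had 13.00, 13.04 and 13.07 with RA, against 13.62, 13.75 and 13.66 with DMSO (-0.64 ± 0.05), and Socs3, its feedback inhibitor, fell by 0.44.

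Of 30 nuclear receptors other than RARs and RXRs, 11 were lower and 8 higher (63.3%). Beside Esr2, the oestrogen receptor alpha, Esr1, fell by 1.62 and Nr5a2 fell by 1.36. The fatty acid receptor Ppara rose by 1.17. Among 27 FoxO factors and targets, 12 were lower and 6 higher (66.7%), with the ubiquitin ligase Fbxo32 at -1.28 and Foxo6 at -1.29. In the p53 and apoptosis list, 19 of 47 were lower and 9 higher (59.6%). Bbc3 (PUMA) fell by 0.86 and Pmaip1 (NOXA) fell by 0.76, whereas Mdm2 and Ccng1 were not called (-0.07 and -0.06). Of 53 interferon response genes, 18 were lower and 8 higher (49.1%), with Ifitm1 at -1.79 and Usp18 at 0.81.

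Adhesion and nerve-type genes went both ways and were called about as often as genes in general. Of 54 junction and adhesion genes, 13 were higher and 16 lower (53.7%): the cadherin Cdh4 fell by 1.35, the connexin Gjb2 fell by 1.30, Itga9 fell by 1.07 and the tight junction protein Ocln fell by 0.97. The cytoskeleton list had 8 of 46 higher and 14 lower (47.8%), with Map2, a microtubule-binding protein, at 1.39. Of 46 vesicle and synapse genes, 17 were higher and 7 lower (52.2% called, median 0.15, and 0.14, 0.13 and 0.17 in the 3 lines). Rims1 rose by 1.19, Syt3 rose by 1.01 and Syt13 rose by 0.87, while Snap25 fell by 1.40. Of 56 axon guidance genes, 14 were higher and 14 lower (50%), with Sema3e at 1.27 and Plxnc1 at -0.93. The count of higher ones was 8 without the block and 9 without WT25. Of 53 ion channel genes, 15 were higher and 15 lower (56.6%), with the potassium channel Kcnc2 at -1.19.

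Of 37 imprinted genes, 8 were higher and 10 lower (48.6%). Magel2 rose by 1.06 and Ascl2 rose by 0.92, while Gnas fell by 0.64 and Nnat fell by 0.61. The count of lower ones was 6 without the block and 5 without WT25. H19, Igf2 and Igf2r were not called (0.08, 0.01 and 0.07). Of 23 Rhox and other X-linked germ cell genes, 10 were higher and 4 lower (60.9%), with Rhox13 at 0.39 and Tex19.2 at -0.56.

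Among the 20 largest falls by the rule were also genes best known from blood and immune cells. Ighm, the heavy chain of immunoglobulin M, had 6.09, 6.34 and 6.25 with RA, against 8.18, 8.67 and 8.58 with DMSO (-2.25 ± 0.20), the lymphocyte surface gene Cd7 fell by 2.14, and Mrc1, the mannose receptor of macrophages, had 6.14, 6.06 and 5.87 with RA, against 7.47, 8.19 and 7.97 with DMSO (-1.85 ± 0.21). Of 7 measured macrophage markers, 4 were lower and 0 higher (57.1%), and their summed log2 level was 7.68 to 7.94 with RA and 8.70 to 9.08 with DMSO. Lyz2, Cd14 and Tyrobp, markers of the same cells, had changes of 0.05, 0.13 and -0.02 and were not called. The other falls of that size were Tmem178b (-2.15), the keratin Krt24 (-1.97), the microtubule-severing protein Fign (-1.93), Pla2g7, which breaks down platelet-activating factor (-1.89), Tbc1d30 (-1.84), Glb1l3 (-1.81), the scaffold Cass4 (-1.80), Abhd12b (-1.80) and the sugar transporter family member Slc5a4a (-1.77).

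Markers of other cells that the cultures could hold were counted in the same way. Of 27 feeder fibroblast markers, 3 were lower and 0 higher (11.1%), and their summed level was 15.50 to 16.14 with RA and 15.64 to 16.31 with DMSO. Without WT23, 10 were lower. Fn1, Col1a2, Col3a1 and Vim were not called (-0.02, -0.02, -0.23 and -0.28), and Col1a1 fell by 0.63. Of 14 Sertoli cell markers, 3 were higher and 1 lower (28.6%), with Aard at 1.10 and Clu at 0.74, and Sox9 (0.12) and Wt1 (0.04) were not called. Of 4 Leydig markers 1 was called (25.0%), and of 8 endothelial markers 4 were lower and 0 higher (50%), with Tek at -0.73 and Pecam1 at -0.67. Without the block, 2 endothelial markers were lower. Their part in the changes of other genes was not tested.

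The 10 largest falls and the 10 largest rises were also taken among genes with a mean of at least log2(2000) over all 42 libraries. Most of these libraries had no RA for 24 h, so the bound favours genes that are high without RA. Stra8, Kit and Rec8 did not reach it, and the sizes of falls and rises in this set cannot be compared. Nefm, Egr2, Tcl1, Enc1 (-1.67), Dusp6, the glycogen phosphorylase Pygl (-1.54), Spry4, Amot (-1.40), an angiomotin of the Hippo pathway, the acetylcholine receptor subunit Chrna4 (-1.39) and Sh3bp4 (-1.27) made up these falls. The rises lay between 0.58 (N4bp2) and 0.85 (Skil). They included Nr6a1, an orphan nuclear receptor of germ cells, at 0.78, the RNA-binding protein Msi1 at 0.63, Rab11fip4 at 0.76 and Mtor.

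The same contrast in Stra8-KO cultures shows which changes also took place without intact Stra8. limma called 14.8% of genes higher and 14.4% lower with RA at 24 h in KO, and the effect in WT differed from that in KO for 5126 genes (31.5%), or 3175 genes without the culture line as a block. Of the 133 genes at least 2-fold higher in WT, 97 were also called higher in KO (72.9%) and 1 was called lower. Their median change was 1.20 in WT and 0.86 in KO. The WT effect was the larger for 52 of them (39.1%), the smaller for 24, and not called different for 57. Of the 259 genes at least 2-fold lower in WT, 121 were called lower in KO (46.7%) and 28 were called higher. Their median change was -1.22 in WT and -0.26 in KO, and the WT effect was the larger for 238 (91.9%) and the smaller for none.

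These genes were chosen on the WT contrast, which favours larger values there. Chosen on the KO contrast, 253 genes were at least 2-fold higher and 17 at least 2-fold lower in KO, against 133 and 259 chosen on WT. Of these higher genes, 159 were called higher in WT (62.8%), with medians of 0.45 in WT and 1.39 in KO. Large falls were thus more numerous in WT than in KO, and large rises more numerous in KO.

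Cyp26a1, Rarb, Kit and Tcerg1l rose in KO too. Their change was 3.25 in WT and 3.57 in KO for Cyp26a1, 2.91 and 3.23 for Rarb, 3.62 and 3.69 for Kit, and 2.63 and 2.87 for Tcerg1l, and none of these differences was called (WT minus KO adjusted p = 0.33, 0.33, 0.84 and 0.39). The WT minus KO differences were -0.32 ± 0.24, -0.32 ± 0.24, -0.08 ± 0.24 and -0.24 ± 0.20 (SE). Foxn4 had 2.93 in WT and 2.39 in KO (adjusted p = 0.055). Rec8 rose by less in WT, 1.97 against 2.29 (adjusted p = 0.0049), as did Ccdc88b (3.26 against 4.24), Rgl3 (1.84 against 3.48) and Wnt7b (2.40 against 3.24). Dhrs3 had 0.07 in WT and 0.90 ± 0.12 in KO (adjusted p = 5.7e-04). Gm4969 rose by more in WT, 1.19 against 0.83 in KO (adjusted p = 0.03), and Prdm9 and Sycp3 had 0.74 and 0.56 in WT against 0.20 and 0.18 in KO (adjusted p = 0.0021 and 0.0065). The authors' deposited test of the genotype by treatment interaction at 24 h did not call Rec8, Gm4969 or Sycp3 (adjusted p = 0.162, 0.155 and 0.128). It did call Ccdc88b, Rgl3, Wnt7b, Dhrs3 and Prdm9.

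The lists of self-renewal and GDNF signalling differed between the genotypes in most members. In the self-renewal list the WT effect differed from the KO effect for 26 of 35 genes, against 31.5% of all genes tested. The medians were -0.46 in WT and -0.09 in KO. In the GDNF list the effects differed for 16 of 24 genes (-0.74 and -0.14). Nanos2 had -2.69 in WT and -0.97 in KO (adjusted p = 1.0e-06), Esr2 -2.21 and -0.45 (adjusted p = 1.1e-08), Zbtb16 -1.17 and -0.30 (adjusted p = 4.9e-08), Etv5 -1.16 and -0.07 (adjusted p = 2.6e-08), and Dusp6 -1.55 and -0.33 (adjusted p = 5.6e-06). Gfra1 went opposite ways, -0.79 ± 0.08 in WT and 0.32 ± 0.08 in KO (SE; adjusted p = 5.4e-07). So did Nanos3, at -1.43 and 0.58, and Dtx1, at -1.17 and 1.30. For ribosomal protein genes the medians were -0.24 in WT and -0.10 in KO, with 24 of 54 called different, against 31.5% of all genes.

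Among the largest differences between the genotypes by the rule, Perp, Grb14, an adaptor of the insulin receptor, Tgm1, a transglutaminase, and Ikzf1 (IKAROS), a zinc finger factor of lymphocytes, had the larger RA effect in WT. Their changes were 1.75, 1.27, 1.20 and 1.00 in WT, against 0.40, -0.04, -0.09 and -0.41 in KO. On the other side stood Slc5a4a, Kcne1, a potassium channel subunit, and Rhobtb1, with -1.77, -1.70 and -1.05 in WT, against 0.85, 0.36 and 1.02 in KO.

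**Figure D4:**
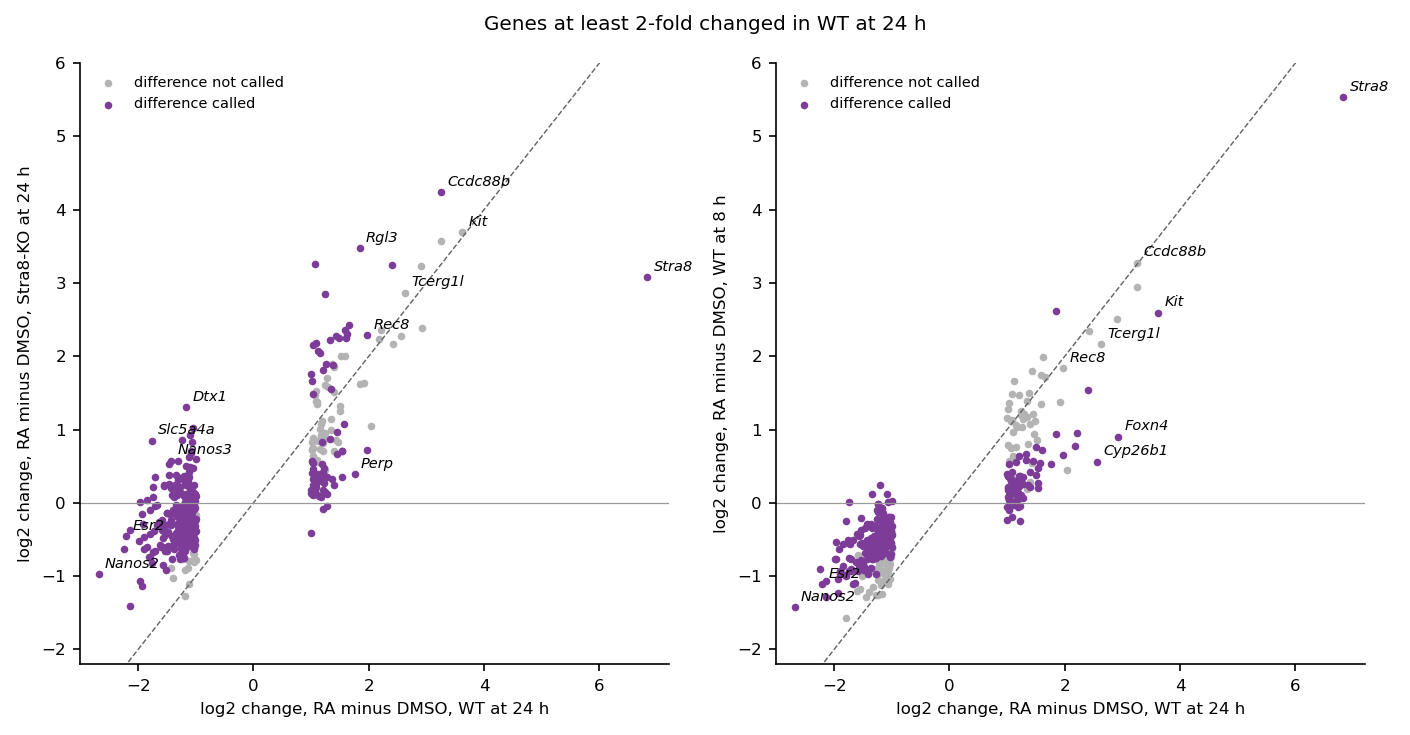
Genes changed at least 2-fold by RA at 24 h in WT cultures, with that change on the horizontal axis and, on the vertical axis, the change of the same gene at 24 h in Stra8-KO cultures (left) or at 8 h in WT cultures (right), all log2, RA minus DMSO; the dashed line marks equal changes and purple marks a called difference. On the left the 259 falls had a median of -0.26 in KO, where 121 of them were called lower and 28 higher. On the right their median was -0.61, between 0 and the line, and 225 of them were called lower at 8 h.

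Set beside 8 h of RA, which has DMSO cultures of its own, most large falls had begun earlier and grew. At 8 h limma called 9.5% of genes higher and 11.5% lower in WT, and the effect at 24 h differed from that at 8 h for 2667 genes (16.4%). The count was 1079 without the culture line as a block, and 1099, 2111 and 1227 without WT17, WT23 and WT25. Of the 259 genes at least 2-fold lower at 24 h, 225 were already called lower at 8 h (86.9%), with a median of -0.61, the 24 h effect was the larger for 185 (71.4%), and both held for 155 (59.8%). Of the 133 at least 2-fold higher, 71 were called higher at 8 h (53.4%), with a median of 0.43, the 24 h effect was the larger for 80 (60.2%) and the smaller for 1, and 27 (20.3%) were called at 8 h and larger at 24 h. These genes too were chosen on the 24 h values.

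Individual genes took different courses. Cyp26a1 and Rarb had changes of 3.25 and 2.91 at 24 h, against 2.94 and 2.51 at 8 h (24 h minus 8 h adjusted p = 0.41 and 0.28). Stra8 had 6.83 at 24 h and 5.54 at 8 h (adjusted p = 0.018), and Kit had 3.62 and 2.60 (adjusted p = 0.0068). For Foxn4 the changes were 2.93 at 24 h and 0.90 at 8 h (adjusted p = 9.9e-07), for Cyp26b1 2.55 and 0.56 (adjusted p = 3.3e-05), and for Gm4969 1.19 and 0.32 (adjusted p = 3.6e-05), so that most of their rise came after 8 h. Rgl3 and Sall4 had the smaller change at 24 h, 1.84 against 2.62 at 8 h for Rgl3 and 0.39 against 0.73 for Sall4 (adjusted p = 0.049 and 5.0e-04). Gfra1 had -0.79 ± 0.08 at 24 h and the opposite sign at 8 h, 0.30 ± 0.08 (SE; adjusted p = 3.9e-06). Etv5 had -1.16 at 24 h and -0.19 at 8 h, Bcl6b -1.24 and -0.02, and Dusp6 -1.55 and -0.44 (adjusted p = 9.9e-07, 3.7e-04 and 6.9e-05). Ribosomal protein genes had a median of -0.24 at 24 h and -0.06 at 8 h, with 30 of 54 called different, against 16.4% of all genes. Replication genes had -0.05 and 0.13, with 20 of 49 called different.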

How the data were processed

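RNA of mouse germ cell cultures was sequenced from stranded mRNA libraries, per the labels' protocols. STAR 2.5.1b, DESeq and the build GRCm38.p4 are named in the submitters' processing notes. How reads were counted, and with which strand setting, is not given in the sources used here, which leaves genes that overlap or share reads uncertain. The deposited values are on a log2 scale, scaled between libraries by the authors, with low genes drawn towards their mean. The authors' mean signal per gene was deposited beside them and was used for description only. Fold changes and adjusted p-values of the authors' own comparisons, deposited in further columns and read as a score because a character marks missing entries, are quoted only as theirs. Library depth is unknown, so counting intervals are not given.

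limma 3.58.1 in R 4.3.3 (with the package data.table, version 1.17.8) fitted 1 mean per group and the culture line as a block to 30 libraries, those of both genotypes at 0, 8 and 24 h, with trend and robust moderation and 16 residual degrees of freedom. The 4 h libraries were all left out of this fit. The authors' column names remark on 2 of them, and an earlier reading of these data had found a further library apart. With the 4 h libraries in the fit, 4998 genes were called in WT at 24 h, against 7568 without them. The Benjamini-Hochberg adjustment ran over 16297 genes, with a threshold of 0.05. Changes carry the SE of the model and levels the SD. The line is a block because the labels give libraries of every condition the same line names. Deviations from the group means correlated between the RA and DMSO libraries of a line with r = 0.31 in WT17, -0.004 in WT23 and 0.32 in WT25, over genes. Between different lines r ran from -0.43 to 0.19. The WT23 RA library had 0.15 with the WT17 DMSO library, above its value with its own line. The model was also run on simulated data with known changes of at least 2-fold in few genes. That setting cannot tell how well small changes in many genes, such as those called here, are recovered.

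The comparison, the 52 gene lists (1702 genes, 1504 of them tested), the filter and the rule for named genes were chosen with earlier results of these data known, and a list's counts are a description. The rule named the markers and Tcerg1l, the 20 largest called changes in each direction with 3 lines of the same sign and a higher mean of at least log2(50), up to 6 called and 4 uncalled members of each list, the 10 largest rises and falls among genes with a mean of at least log2(2000) over all libraries, and the 5 largest differences between genotypes in each direction. Predicted models, clones and pseudogenes were left out. Some genes that the rule names are not reported here. Promoter sequences are RefSeq's. Alternatives changed the block, the libraries fitted, the scaling, the filter, the moderation and the line left out.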

Additional observations from a re-analysis of the deposited data

Results flagged for a closer look

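The RA effect at 24 h differed between WT and KO for 5126 genes and between 24 h and 8 h in WT for 2667 genes, by limma tests of the difference itself. Among the genes named, the WT minus KO difference in log2 change was 3.75 for Stra8, the disrupted gene, 1.36 for Perp, 1.41 for Ikzf1, 1.31 for Grb14 and 1.28 for Tgm1. It was -1.71 for Nanos2, -1.75 for Esr2, -2.62 for Slc5a4a, -2.47 for Dtx1, -2.06 for Rhobtb1, -2.06 for Kcne1 and -2.01 for Nanos3. The authors' deposited interaction of genotype and treatment at 24 h lists -0.34 for Stra8, not called (adjusted p = 0.77). It calls the other genes of this paragraph, with the same sign as here. Groups of 3 libraries are too small for a test of outlying samples.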

How the results depend on the processing

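The count of genes called in WT at 24 h, 7568 in all, was 6011 with no replicate block, so pairing by line changed it by less than 1.5 times. It was 4998 (2569 lower) over all 42 libraries with the replicate block and 3949 (1926 higher, 2023 lower) over all 42 with no replicate block. Leaving out 1 WT line gave 6140 to 6530 genes, 2827 to 3102 of them higher and 3313 to 3428 lower. The other settings gave 6234 to 7544 genes. One of these, a removal of the trend with gene length, was chosen after seeing the data. The difference between WT and KO was called for 3175 genes with no replicate block, 2413 over all 42 libraries with the block and 1377 over all 42 with no replicate block, and that between 24 h and 8 h for 1079, 710 and 259. The cause was not tested. Of 482 named genes, 463 kept their side of the threshold with no replicate block, 440 over all 42 libraries with no replicate block and 438 under quantile normalization. Of the 52 gene lists, 30 had their count of called genes lowered by over 1.5 times over all 42 libraries with no replicate block, 11 over all 42 with the block and 5 with no replicate block. Under quantile normalization Dazl (0.12), Mov10l1 (0.0934), Dnmt1 (0.15) and Atp5a1 (0.0975), uncalled before, were called with the opposite sign. Among genes at least 2-fold lower in WT, the share with the larger effect in WT ranged from 70.4% to 93.3% over the settings, and among those at least 2-fold higher from 22.9% to 40.7%.

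Read depth is unknown, values of low genes are compressed, and markers of feeder cells were measured in the libraries, so small changes and changes of low genes are the least certain.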

Other observations

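Genes of the X chromosome were called higher more often than genes of the whole table. Of 638 tested, 198 were higher with RA in WT at 24 h (31.0%) and 104 lower (16.3%), with a median change of 0.06 and of 0.049, 0.106 and 0.038 in WT17, WT23 and WT25. In KO at 24 h 12.1% were higher and 16.5% lower, with a median of -0.022. Chromosome 14 had 30.6% higher and 16.2% lower, and chromosome 15 had 18.5% higher and 30.6% lower. These chromosomes were picked after all were seen, and no test was made.

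The change with RA in WT shifted with gene length: its median was -0.044 for genes up to 1000 bases and 0.0413 for genes over 8000 bases, against 0.0203 and -0.0371 in KO. Over all genes in WT, Spearman's rho with length was 0.0841, as a description over genes that share the same 6 libraries. On the first principal component of the 30 libraries (27.7% of the variance), WT libraries with RA for 24 h lay at 37.6 to 39.2, KO libraries with RA for 24 h at 15.2 to 19.7, and DMSO libraries at 24 h at -6.9 to -0.4 in WT and -6.4 to -3.2 in KO.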
